A study of Mus musculus with 24 samples.

Results

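The genes described here encode the enzymes that break down fatty acids in mitochondria. They were chosen by name from their known function, as 12 genes of the beta-oxidation spiral, 3 further acyl-CoA dehydrogenases, 3 genes of the electron transfer flavoprotein, 9 genes for branched-chain acyl groups and propionate, and 5 long-chain acyl-CoA synthetases. All 32 were found among the 23420 genes listed for each library. Of these, 31 were among the 11885 genes that entered the tests, and each of the 31 was above 1 CPM (reads of a gene scaled to a common library total) in all 24 libraries, with Acad8 the lowest at a log2 value of 0.73 in 1 naive library.

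RNA was sequenced from sorted splenic B cells of Balb/c mice in 24 libraries, 3 for each of 8 groups. Germinal center (GC) B cells, labelled early, peak or late, and in vivo activated B cells were set beside naive B cells and B cells activated in vitro for 4, 12 and 24 h. All groups share the strain and the tissue in the labels. The labels give no allele, and the sources used here give no age, sex, immunization, day or activating agent, nor do they say whether the 3 libraries of a group came from separate animals or cultures. The p-values below therefore measure only the spread between these libraries, which may be technical. The values are log2 expression close to log2 CPM, and the read depth behind them is unknown.

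Fatty acids are first joined to coenzyme A by acyl-CoA synthetases and enter the mitochondrion through the carnitine shuttle. In each turn of beta-oxidation a dehydrogenase, a hydratase, a second dehydrogenase and a thiolase shorten the chain, and the first dehydrogenase hands its electrons to the electron transfer flavoprotein. Breakdown of valine, isoleucine and leucine uses related dehydrogenases and the same flavoprotein, and valine and isoleucine end in propionyl-CoA. Fatty acid oxidation has been reported as an energy source of GC B cells, which divide rapidly.

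The upstream stretches printed below were chosen because the genes beside them were higher in GC than in naive cells and work at central steps of the spiral. Hadha and Hadhb, the alpha and beta subunits of the mitochondrial trifunctional protein, lie head to head on chromosome 5 of GRCm38, with Hadha on the minus strand at chr5:30118304-30155162 and Hadhb on the plus strand at chr5:30155248-30184593. The 85 bases between them, chr5:30155163-30155247, are given on the plus strand with GC boxes (GGGCGG on either strand) in capitals. These gene ends are from the GENCODE annotation. The RefSeq start of Hadha differs, and the 250 bases before it, chr5:30154981-30155230, lie partly inside the GENCODE span of Hadha. Etfa and Etfb encode both subunits of the electron transfer flavoprotein, and the 250 bases before the RefSeq start of each are given on the strand of the gene, chr9:55512244-55512493 on the minus strand for Etfa and chr7:43443822-43444071 on the plus strand for Etfb. In these, capitals mark CCAAT boxes (CCAAT, or ATTGG where the box lies on the other strand) and, in Etfa, the NRF1 element GCGCATGC.
Hadha-Hadhb: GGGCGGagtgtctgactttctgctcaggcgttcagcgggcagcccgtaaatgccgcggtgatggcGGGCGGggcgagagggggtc
Etfa: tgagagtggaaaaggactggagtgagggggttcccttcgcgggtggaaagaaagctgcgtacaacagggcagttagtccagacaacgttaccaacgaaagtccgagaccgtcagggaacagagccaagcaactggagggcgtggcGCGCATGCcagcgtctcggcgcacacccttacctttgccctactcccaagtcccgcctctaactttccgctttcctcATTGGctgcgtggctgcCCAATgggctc
Etfb: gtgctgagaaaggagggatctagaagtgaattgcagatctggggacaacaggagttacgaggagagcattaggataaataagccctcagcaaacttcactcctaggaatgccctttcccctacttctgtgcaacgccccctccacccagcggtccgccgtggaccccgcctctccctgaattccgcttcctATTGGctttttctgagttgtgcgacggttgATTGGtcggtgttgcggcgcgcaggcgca

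The Hadha-Hadhb stretch is 69.4% G or C and holds 9 CpG sites, and the Etfa and Etfb stretches are 58.8% and 55.6% G or C with 16 and 14 CpG sites. A RefSeq promoter (250 bases before to 50 after the start, GRCm38.p6) was matched for 27 of the 32 genes. Motifs were searched on both strands of the 250 bases before the start only. The share of all 32851 mouse promoters searched with a match is given beside each count. The NRF1 element GCGCATGC was found in 5 of the 27 (Acadm, Acad10, Etfa, Etfdh and Pccb), against 2.26% of all promoters. The CCAAT box was found in 14 of 27, against 33.8%, and the GC box in 17 of 27, against 32.7%. The 27 promoters had a median of 58.8% G or C (49.6% to 79.6%), against 52.4% (0.0% to 91.6%) over all promoters. The part of base composition in these counts was not tested. The element bound by estrogen-related receptors, TCAAGGTCA, was found only in Acsl6 (0.387% of all promoters). No match to the E-box CACGTG (6.02%), the ETS element CCGGAAGT (2.88%) or the PPAR element AGGTCANAGGTCA (0.0335%) was found in these windows. These matches describe letters in a window, and the files hold no measurement of binding.

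B cell markers were found in all libraries and GC markers summed highest in the GC groups, with some RNA of other cell types. No marker list was made for the labels of activation. The 7 B cell markers summed to 2800 to 6880 CPM over all libraries. The sums were 6460 to 6880 CPM in naive libraries and 2800 to 2870 CPM at 24 h in vitro, where all 7 were lower than in naive cells. The 5 GC markers used summed to 1800 to 2300 CPM in peak GC libraries, 612 to 711 CPM in in vivo activated libraries and 154 to 160 CPM in naive libraries. In in vivo activated against naive cells 2 of the 5 were higher and 3 lower (median log2 fold change -1.87). The 4 naive follicular markers measured summed to 3400 to 4200 CPM in naive libraries. They summed to 1350 to 1670 CPM in in vivo activated and 363 to 439 CPM in peak GC libraries. The GC-specific receptor gene S1pr2 averaged a log2 value of 8.73 in peak GC cells, 1.31 in in vivo activated cells and 3.18 in naive cells. The 9 macrophage and monocyte markers measured summed to 484 to 2080 CPM in late GC libraries, the highest being late GC library 1, and to 118 to 266 CPM in peak GC libraries, 30.8 to 37.7 CPM in libraries of cells activated in vivo, and 52.7 to 56.9 CPM in naive libraries. The 5 erythroid markers measured summed to 330 to 510 CPM in late GC libraries, 78.1 to 97.7 CPM in peak GC libraries, 6.89 to 10.5 CPM in libraries of cells activated in vivo, and 40.3 to 45.4 CPM in naive libraries, with the globin genes Hba-a1 and Hba-a2 at or near the floor throughout. The 7 T cell markers measured summed to 175 to 219 CPM in peak GC and 208 to 215 CPM in in vivo activated libraries, against 45.4 to 53.7 CPM in naive libraries. In vitro they summed to 158 to 166 CPM at 4 h, 165 to 177 CPM at 12 h and 183 to 204 CPM at 24 h. Of the 4 T cell markers tested, only 1 was higher than in naive cells in each of these 5 groups. The others were lower or not called, with 3 lower at 4 h and 3 at 12 h. The higher sums thus do not hold for the list as a whole. The Y-linked gene Ddx3y sat at the floor of the scale, -6.18, in all GC and in vivo activated groups, against group means of 4.77 to 5.75 in naive cells and the in vitro groups, while Xist averaged 8.25 in peak GC cells, 8.10 in cells activated in vivo, and 7.19 in naive cells. This difference in sex-linked genes runs along the same line as the comparisons of GC and in vivo activated cells with naive and in vitro cells, and cannot be told apart from them. In bulk RNA, fewer cells of a type and less RNA per cell cannot be told apart either.

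Peak GC cells against naive cells split the set, as they split all genes tested. At a Benjamini-Hochberg adjusted p under 0.05 in limma, 10 of the 31 genes tested were higher and 15 lower in peak GC cells. These are 32.3% and 48.4%, against 40.5% and 39.3% of all genes tested. A fold of 2 or more was reached by 2 members, Etfa upward and Acadsb downward, against 34.7% of all genes. The median log2 fold change was -0.15 over the members and 0.01 over all genes. The 10 genes that rose were Etfa and Etfb of the flavoprotein, Hadha and Hadhb of the trifunctional protein, the long- and short-chain dehydrogenases Acadl and Acads, Echs1, Mut, Acsl3 and Acsl5. The very-long-chain and medium-chain dehydrogenases and 6 of 9 branched-chain and propionate genes fell.

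**Figure D1:**
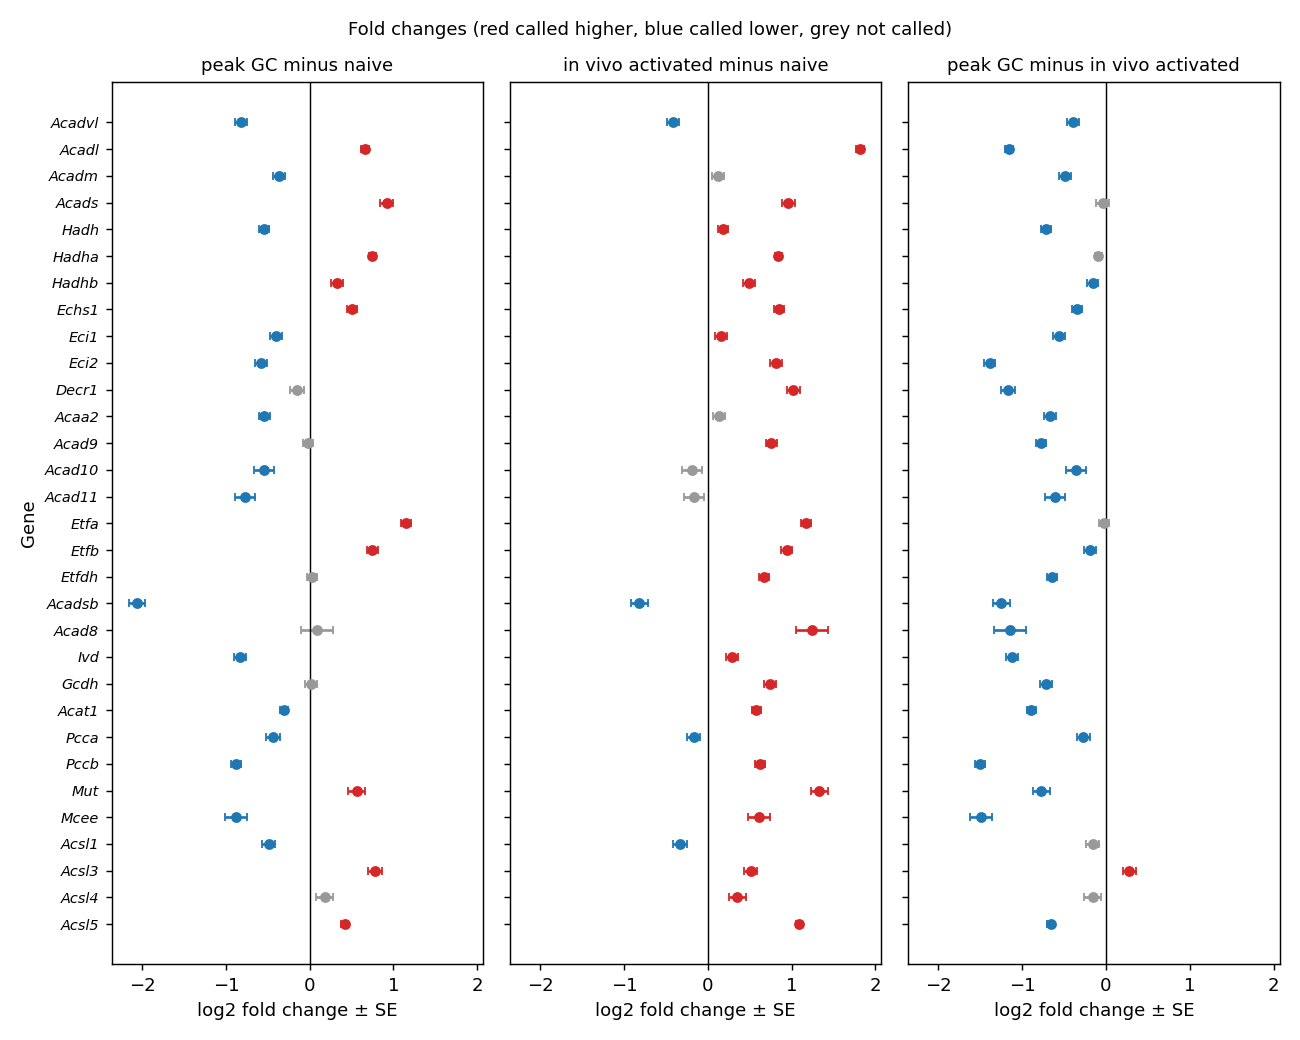
Log2 fold changes with standard errors (horizontal axis) of the 31 genes tested (rows, by role) for peak GC minus naive, in vivo activated minus naive and peak GC minus in vivo activated cells, 3 libraries a group. Red points were called higher, blue points lower and grey points not called. In the first panel 10 points are red and 15 blue, in the second 23 and 4, and in the third 1 and 25.

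The acyl-CoA dehydrogenases of different chain length moved in different directions in peak GC cells. Acadvl, which acts on very long chains, read 5.21, 5.33 and 5.09 in peak GC libraries, 5.61, 5.54 and 5.66 in in vivo activated libraries and 6.16, 5.93 and 5.98 in naive libraries. All peak GC values lay below all in vivo activated values, and these below all naive values. The log2 fold change was -0.82 ± 0.07 (SE) for peak GC against naive (limma adjusted p = 1.97e-10) and -0.42 ± 0.07 for in vivo activated against naive (limma adjusted p = 7.69e-06).

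Acadl, the long-chain enzyme, read 6.70, 6.77 and 6.82 in peak GC libraries, 7.89, 7.90 and 7.99 in in vivo activated libraries and 6.14, 6.07 and 6.12 in naive libraries. The in vivo activated values stood highest and the naive ones lowest, with no overlap between the 3 groups. Acadl rose by 0.66 ± 0.05 on the log2 scale in peak GC cells (limma adjusted p = 2.35e-11) and by 1.82 ± 0.05 in in vivo activated cells (limma adjusted p = 1.54e-19), both against naive cells.

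Acadm, the medium-chain enzyme, read 5.02, 5.15 and 4.90 in peak GC libraries, 5.55, 5.53 and 5.46 in in vivo activated libraries and 5.39, 5.34 and 5.45 in naive libraries. Its peak GC values were the lowest of the 3 groups, and it fell by 0.37 ± 0.07 against naive cells (log2 fold change -0.37, limma adjusted p = 6.37e-05). Its difference between in vivo activated and naive cells, 0.12 ± 0.07, did not pass the threshold (limma adjusted p = 0.13). Acads, the short-chain enzyme, read 5.31, 5.43 and 5.19 in peak GC libraries, 5.36, 5.30 and 5.40 in in vivo activated libraries and 4.55, 4.36 and 4.28 in naive libraries. Peak GC and in vivo activated values overlapped and lay well above the naive ones. The log2 fold change of Acads was 0.92 ± 0.08 in peak GC cells (limma adjusted p = 2.88e-10) and 0.96 ± 0.08 in in vivo activated cells (limma adjusted p = 1.32e-10), each against naive cells.

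Both subunits of the trifunctional protein, which carries out the last 3 steps of the spiral on long chains, were higher in peak GC cells. Hadha read 8.29, 8.35 and 8.37 in peak GC libraries, 8.38, 8.43 and 8.46 in in vivo activated libraries and 7.63, 7.56 and 7.57 in naive libraries. Hadhb read 6.38, 6.30 and 6.65 in peak GC libraries, 6.58, 6.58 and 6.63 in in vivo activated libraries and 6.07, 6.17 and 6.10 in naive libraries. No naive library reached a peak GC or in vivo activated one in either gene. The log2 fold change of peak GC against naive was 0.75 ± 0.04 for Hadha (limma adjusted p = 6.73e-14) and 0.33 ± 0.07 for Hadhb (limma adjusted p = 9.12e-05). Although they flank the 85-base stretch printed above, the log2 difference Hadha minus Hadhb was not the same in all groups. It averaged 1.84 ± 0.04 in early GC, 1.89 ± 0.17 in peak GC, 1.90 ± 0.10 in late GC and 1.82 ± 0.03 in in vivo activated cells (SD, n = 3 each), against 1.48 ± 0.09 in naive cells. After in vitro activation it averaged 2.28 ± 0.06 at 4 h, 2.67 ± 0.01 at 12 h and 2.36 ± 0.06 at 24 h. The naive libraries held the smallest difference and the 12 h libraries the largest, as a description with no test. Exons of Hadha overlap those of Garem2 on the other strand, and how the counting treated strand is not given in the sources used here.

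The flavoprotein subunits rose in both in vivo groups. Etfa read 6.89, 6.91 and 7.02 in peak GC libraries, 6.96, 6.90 and 7.03 in in vivo activated libraries and 5.78, 5.87 and 5.74 in naive libraries. Etfb read 6.08, 6.20 and 6.14 in peak GC libraries, 6.43, 6.19 and 6.37 in in vivo activated libraries and 5.51, 5.34 and 5.33 in naive libraries. Every naive value lay below every peak GC and in vivo activated value of the same gene. Etfa had the largest rise of the set in peak GC against naive cells, 1.15 ± 0.06 on the log2 scale (limma adjusted p = 2.25e-14), and Etfb rose by 0.75 ± 0.07 (limma adjusted p = 2.16e-09). Etfdh, which passes the electrons from the flavoprotein to ubiquinone, read 5.09, 5.14 and 5.27 in peak GC libraries, 5.83, 5.78 and 5.80 in in vivo activated libraries and 5.12, 5.12 and 5.17 in naive libraries. Its peak GC and naive values overlapped, with a log2 difference of 0.03 ± 0.06 (limma adjusted p = 0.644), whereas in vivo activated cells stood 0.67 ± 0.06 above naive cells (limma adjusted p = 4.91e-10).

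**Figure D2:**
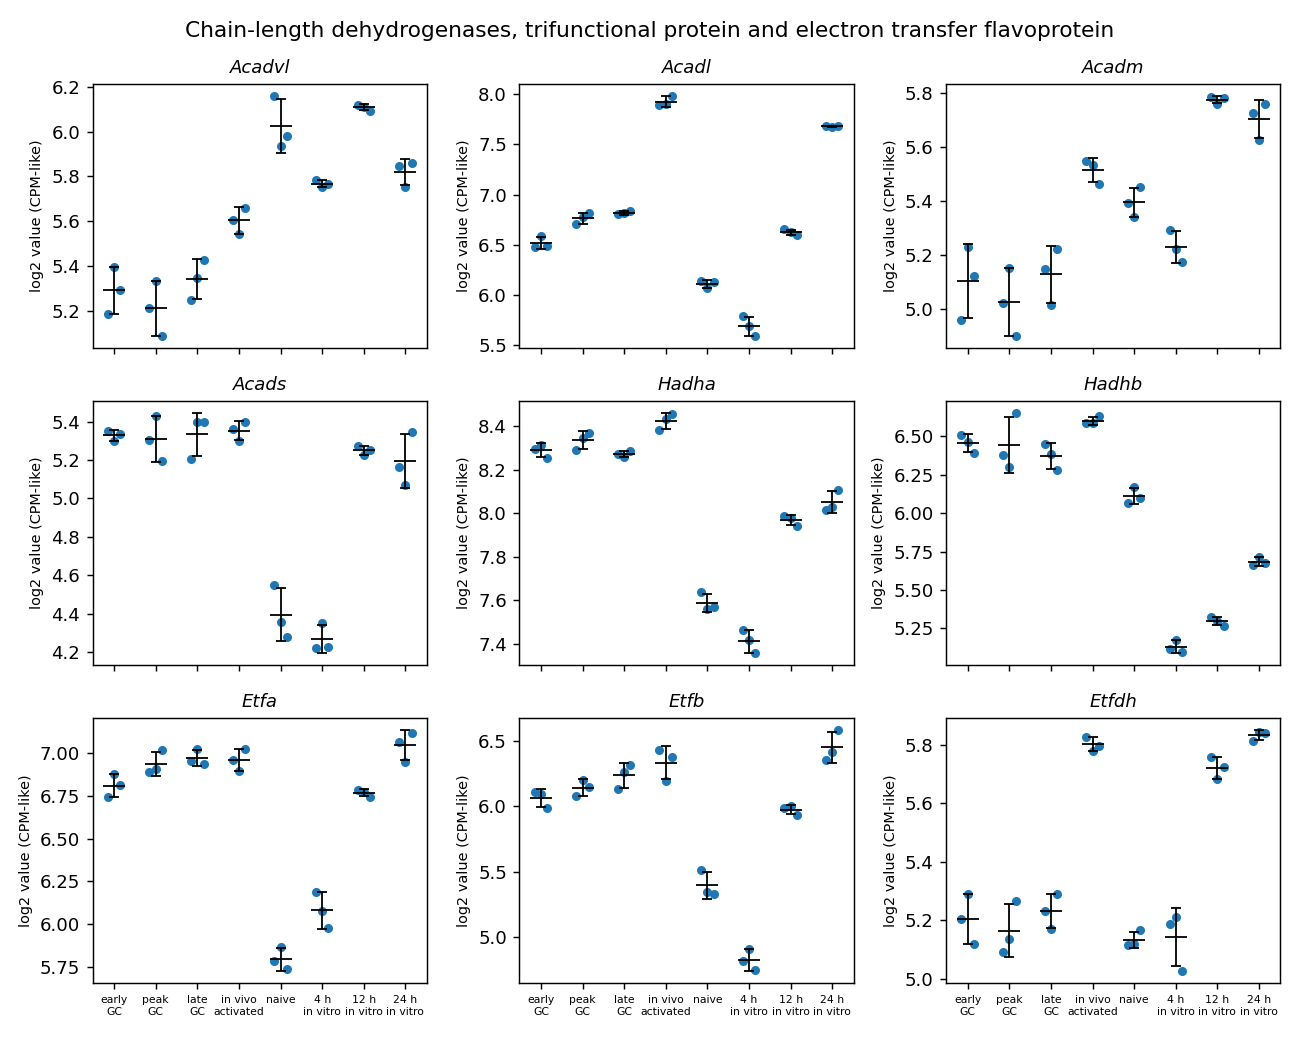
Log2 expression value (vertical axis, its range set per gene) in each library (points) with the group mean and SD (bars, n = 3) for 9 genes in 8 groups (horizontal axis). Acads, Hadha, Etfa and Etfb are higher in the GC and in vivo activated groups than in naive cells, and Acadvl is lower in them. Etfdh in GC cells lies close to naive cells. Its group means are 5.21 in early, 5.16 in peak and 5.23 in late GC and 5.13 in naive cells.

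The remaining spiral genes mostly fell in peak GC against naive cells. Echs1, the short-chain hydratase, rose by 0.51 ± 0.06 (limma adjusted p = 1.6e-07). The log2 fold change was -0.54 ± 0.06 for Hadh, the hydroxyacyl-CoA dehydrogenase of medium and short chains, -0.54 ± 0.07 for Acaa2, the thiolase, -0.40 ± 0.07 for Eci1 and -0.58 ± 0.07 for Eci2, isomerases used for unsaturated chains, with limma adjusted p from 5.33e-08 to 8.21e-06. Decr1, the dienoyl-CoA reductase for unsaturated chains, differed by -0.15 ± 0.08 (limma adjusted p = 0.0937). Its call depended on 1 library, since without peak GC library 2 the difference was -0.20 (limma adjusted p = 0.0441). Of the 3 further dehydrogenases, Acad10 fell by 0.55 ± 0.12 and Acad11 by 0.77 ± 0.12, and Acad9, which also assembles respiratory complex I, differed by -0.02 ± 0.06.

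Genes for branched-chain acyl groups and propionate were lower in peak GC than in naive cells in 6 of 9 cases and higher in 1. These are 66.7% and 11.1%, against 39.3% and 40.5% of all genes tested. Acadsb, the dehydrogenase of the isoleucine pathway, read 2.46, 2.66 and 2.50 in peak GC libraries, 3.76, 3.69 and 3.91 in in vivo activated libraries and 4.56, 4.60 and 4.64 in naive libraries. The 3 groups were fully separate, with peak GC lowest. Its log2 fold change of -2.06 ± 0.10 in peak GC against naive cells was the largest fall of the set (limma adjusted p = 6.78e-15). Pccb, the beta subunit of propionyl-CoA carboxylase, fell by 0.88 ± 0.06, its alpha subunit Pcca by 0.44 ± 0.08, the epimerase Mcee by 0.88 ± 0.13, the isovaleryl-CoA dehydrogenase Ivd by 0.83 ± 0.07 and the thiolase Acat1 by 0.31 ± 0.05. Mut, the methylmalonyl-CoA mutase that follows Mcee, rose by 0.56 ± 0.10 (limma adjusted p = 2e-05). Gcdh, which acts in lysine and tryptophan breakdown, and Acad8, the isobutyryl-CoA dehydrogenase of valine breakdown, differed by 0.02 ± 0.07 and 0.09 ± 0.19 without passing the threshold.

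Among the synthetases, Acsl3 and Acsl5 rose in peak GC against naive cells by 0.78 ± 0.08 and 0.42 ± 0.04, and Acsl1 fell by 0.49 ± 0.08. Acsl4, which favours arachidonate, differed by 0.18 ± 0.10 (limma adjusted p = 0.0968), and its call rested on single libraries: the difference was 0.29 without peak GC library 2 (limma adjusted p = 0.0146) and 0.26 without naive library 2 (limma adjusted p = 0.034). Acsl6 was near the floor, with group means from -6.18 to -2.07, and was not tested. Beside these results, 3 of 9 macrophage markers, 2 of 6 neutrophil markers and 2 of 3 erythroid markers tested were higher in peak GC than in naive cells and 2, 0 and 0 were lower. Of the stroma markers tested, 3 of 3 were lower (median log2 fold change -1.74), and the whole list summed to 38.9 to 47.7 CPM in peak GC libraries, against 257 to 299 CPM in naive libraries. Of the plasma cell markers 2 of 3 were lower and 1 higher, with sums of 114 to 234 CPM in peak GC libraries, against 129 to 141 CPM in naive libraries. Dendritic cell markers were lower in 2 of 5 cases and higher in 1, and T cell markers lower in 0 of 4 and higher in 1. The part of these cell types in the differences was not tested.

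In vivo activated cells had higher levels of most of the set than naive cells. By limma, 23 of 31 members were higher and 4 lower, against 39.2% and 40.1% of all genes tested. A fold of 2 or more was reached by 6 members, all upward, against 33.5% of all genes. The median log2 fold change was 0.61 over the members and -0.02 over all genes. By role, 9 of 12 spiral genes, 1 of 3 further dehydrogenases, 3 of 3 flavoprotein genes, 7 of 9 branched-chain and propionate genes and 3 of 4 synthetases were higher. The 4 lower genes were Acadvl, Acadsb (-0.82 ± 0.10), Acsl1 (-0.33 ± 0.08) and Pcca (-0.17 ± 0.08, limma adjusted p = 0.044).

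Acadl led, and Mut and Acad8 came next. Mut read 5.15, 5.11 and 5.25 in in vivo activated libraries, against 3.64, 3.95 and 3.94 in naive libraries. Acad8 read 2.11, 2.21 and 2.10 in in vivo activated libraries, against 1.06, 0.91 and 0.73 in naive libraries. In both genes every in vivo activated library was above every naive one, by a log2 fold change of 1.33 ± 0.10 for Mut (limma adjusted p = 1.81e-11) and 1.24 ± 0.19 for Acad8 (limma adjusted p = 2.62e-06). Etfa (1.17 ± 0.06), Acsl5 (1.09 ± 0.04) and Decr1 (1.02 ± 0.08) were the other genes past a fold of 2. The small changes were less secure. Pcca lost its call without in vivo activated library 2 or any of the 3 naive libraries (limma adjusted p from 0.0505 to 0.225). Eci1, at 0.16 ± 0.07, lost it without in vivo activated library 1 or 3 or naive library 2 or 3 (0.0705 to 0.172), and Hadh, at 0.18 ± 0.06, without in vivo activated library 3 or naive library 2 (0.142 and 0.103). Beside these results, 7 of 9 macrophage markers, 4 of 6 neutrophil markers and 3 of 3 erythroid markers were lower in in vivo activated than in naive cells, and 1, 0 and 0 were higher. Of 3 stroma markers tested, 2 were higher and 1 lower (median log2 fold change 1.01), while the summed list read 116 to 149 CPM in in vivo activated libraries, against 257 to 299 CPM in naive libraries. Plasma cell markers were higher in 1 of 3 cases and lower in 2, and dendritic cell markers higher in 1 of 5 and lower in 3. T cell markers were higher in 1 of 4 cases and lower in 1. Their part was not tested.

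Set directly against in vivo activated cells, peak GC cells had lower levels of nearly the whole set. By limma, 25 of 31 members were lower and 1 higher in peak GC cells, against 35.0% and 34.1% of all genes tested. A fold of 2 or more was reached by 8 members, all downward, against 23.6% of all genes. The median log2 fold change was -0.64 over the members and -0.01 over all genes. By role, 10 of 12 spiral genes, 3 of 3 further dehydrogenases, 2 of 3 flavoprotein genes, 9 of 9 branched-chain and propionate genes and 1 of 4 synthetases were lower. This comparison shares its libraries with the previous ones, so the 3 sets of values are not independent.

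The 3 largest falls were those of Pccb, Mcee and the isomerase Eci2. Pccb read 4.03, 4.12 and 4.01 in peak GC libraries, against 5.56, 5.48 and 5.61 in in vivo activated libraries. Mcee read 1.72, 1.91 and 1.46 in peak GC libraries, against 3.07, 3.19 and 3.31 in in vivo activated libraries. Eci2 read 4.49, 4.67 and 4.46 in peak GC libraries, against 5.87, 5.92 and 6.0 in in vivo activated libraries. In these 3 genes the groups were more than 1 log2 unit apart. Their log2 fold changes were -1.50 ± 0.06 for Pccb (limma adjusted p = 3.8e-16), -1.49 ± 0.13 for Mcee (limma adjusted p = 8.14e-10) and -1.39 ± 0.07 for Eci2 (limma adjusted p = 1.73e-14). Acadsb, Decr1, Acadl, Acad8 and Ivd followed, with log2 fold changes from -1.25 to -1.12. Acsl3, a synthetase of the endoplasmic reticulum and lipid droplets, was the only gene called higher (0.28 ± 0.08, limma adjusted p = 0.00294).

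The 5 members with no call were Etfa (-0.02 ± 0.06), Acads (-0.04 ± 0.08), Hadha (-0.09 ± 0.04), Acsl1 and Acsl4 (-0.16 each), and a missed threshold does not show that their levels were equal. Hadha passed without peak GC library 3 (limma adjusted p = 0.0458) or without in vivo activated library 1 (0.045). Calls close to the threshold were Hadhb (-0.16 ± 0.07), Etfb (-0.19 ± 0.07) and Acad10 (-0.36 ± 0.12). Hadhb lost its call without peak GC library 1 or 2 or any in vivo activated library (limma adjusted p from 0.0619 to 0.284). Etfb lost it without peak GC library 1 or in vivo activated library 1 or 3 (0.0844 to 0.132), and Acad10 without peak GC library 3 or in vivo activated library 3 (0.104 and 0.0566). Beside these results, 4 of 9 macrophage markers, 6 of 6 neutrophil markers and 3 of 3 erythroid markers were higher in peak GC than in in vivo activated cells, and 1, 0 and 0 were lower. Lower, as most members were, were 3 of 3 stroma markers (median log2 fold change -1.77), whose list summed to 38.9 to 47.7 CPM in peak GC libraries, against 116 to 149 CPM in in vivo activated libraries. Plasma cell markers were lower in 2 of 3 cases and higher in 0 (median -1.71), with sums of 114 to 234 CPM in peak GC libraries, against 180 to 219 CPM in in vivo activated libraries. Dendritic cell markers were higher in 2 of 5 cases and lower in 2, and T cell markers higher in 1 of 4 and lower in 0. Their part was not tested.

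**Figure D3:**
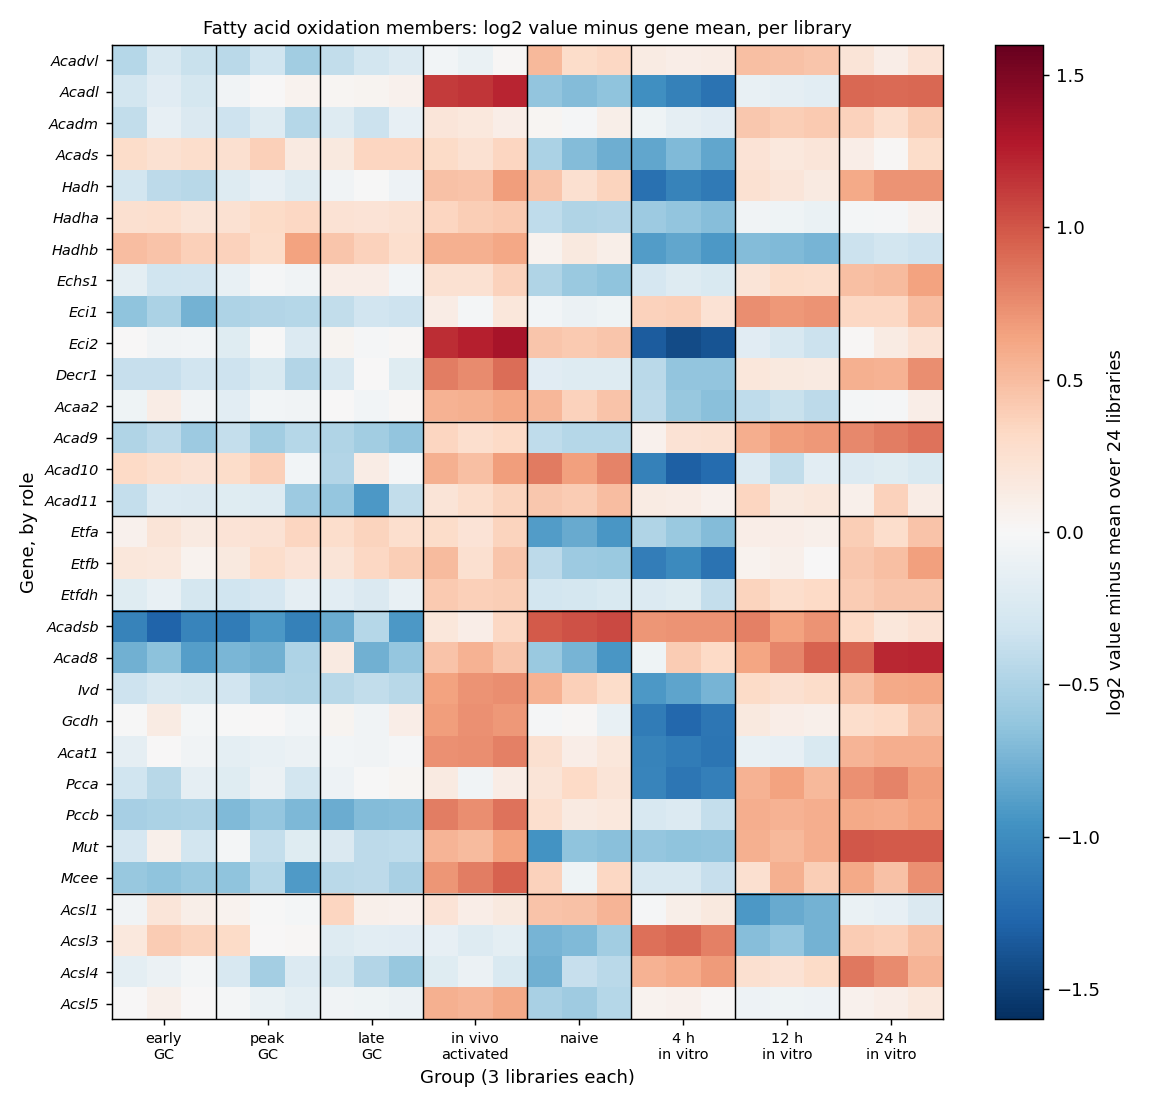
Log2 value minus the gene's mean over 24 libraries (colour, red above and blue below the mean) for the 31 genes tested (rows, by role, with lines between roles) in each library (columns, 3 for each of 8 groups). Of the 31 genes, 13 had their highest group mean in in vivo activated cells and 10 in 24 h cells, while 14 had their lowest at 4 h and none had its highest in a GC group. The same counts were not made over all genes tested, so they do not show that the set differs from other genes.

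Levels of different genes were compared per kilobase of exon (the union of the GENCODE exons of a gene). In peak GC cells Etfa, Etfb, Acadl, Acsl5 and Hadha stood highest, at log2 CPM per kb of 6.06 ± 0.07, 5.92 ± 0.06, 5.76 ± 0.06, 5.57 ± 0.06 and 5.21 ± 0.04 (SD, n = 3 each). The gaps between neighbours from Etfa to Hadha were larger than their SDs. Acadl was first in in vivo activated cells at 6.92 ± 0.05, clear of Acsl5 at 6.24 ± 0.03. In naive cells Etfb (5.18 ± 0.10), Acsl5 (5.15 ± 0.06), Acadl (5.11 ± 0.04) and Acaa2 (5.05 ± 0.08) came first, and no gap between neighbours in this order exceeded the larger of their SDs. Among the 4 chain-length dehydrogenases, the order per length in peak GC cells was Acadl, Acads (4.13 ± 0.12), Acadvl (3.78 ± 0.12) and Acadm (3.06 ± 0.13), and in naive cells it was Acadl, Acadvl (4.60 ± 0.12), Acadm (3.43 ± 0.05) and Acads (3.21 ± 0.14). Acads thus stood above Acadvl in peak GC cells and below it in naive cells. Acad8 was the lowest gene tested, at -1.06 ± 0.15 in peak GC cells, 0.09 ± 0.06 in cells activated in vivo, and -1.15 ± 0.17 in naive cells. The length used matters for some genes: with the longest transcript in place of all exons, Hadha ranked 2 and not 5 in peak GC cells and 1 and not 8 in naive cells, at a log2 CPM per kb of 5.58, next to Etfb at 5.56. Acaa2 then ranked 7 and not 4 in naive cells. With the longest transcript the order in peak GC cells was Etfa (6.46), Hadha (6.33), Etfb (6.30), Acadl (5.83) and Acsl5 (5.77). Hadha and Etfb then lay closer than their SDs. The order in naive and in peak GC cells thus depends on the length used.

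**Figure D4:**
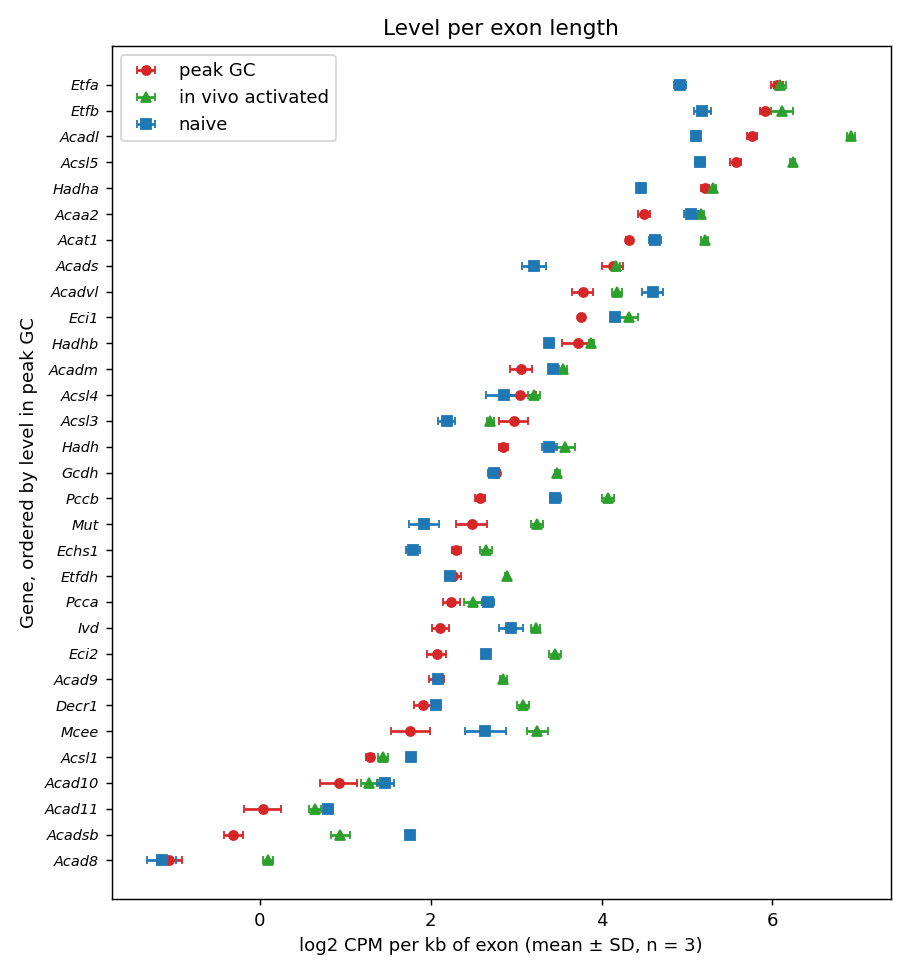
Level per kilobase of exon (horizontal axis, log2 CPM per kb, mean with SD, n = 3) of the 31 genes tested (rows, ordered by peak GC level) in peak GC (circles), in vivo activated (triangles) and naive cells (squares). Etfa lies close together in the peak GC and in vivo activated groups (6.06 and 6.09), whereas Acadl is highest in in vivo activated cells at 6.92 and Acadsb is highest in naive cells.

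At 4 h of in vitro activation most of the set was lower than in naive cells. By limma, 8 of 31 members were higher and 20 lower, against 38.9% and 39.1% of all genes tested. A fold of 2 or more was reached by 10 members, 2 up and 8 down, against 33.7% of all genes. The median log2 fold change was -0.34 over the members and -0.01 over all genes. Acad10, a dehydrogenase family member of little known substrate, read 2.22, 2.0 and 2.08 at 4 h, against 4.14, 3.96 and 4.11 in naive libraries. Eci2 read 3.35, 3.25 and 3.29 at 4 h, against 5.13, 5.10 and 5.12 in naive libraries. Hadh read 4.16, 4.28 and 4.21 at 4 h, against 5.79, 5.61 and 5.71 in naive libraries. These genes were more than 1 log2 unit lower in every 4 h library than in any naive one. The log2 fold changes were -1.97 ± 0.12 for Acad10 (limma adjusted p = 9.24e-13), -1.82 ± 0.07 for Eci2 (limma adjusted p = 5.77e-17) and -1.49 ± 0.06 for Hadh (limma adjusted p = 8.47e-16).

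The other genes lowered by a fold of 2 or more at 4 h were Pcca (-1.34 ± 0.08), Acat1 (-1.30 ± 0.05), Ivd (-1.25 ± 0.07), Gcdh (-1.13 ± 0.07) and Acaa2 (-1.02 ± 0.07). In the chain-length dehydrogenases the changes were smaller: -0.26 ± 0.07 for Acadvl, -0.42 ± 0.05 for Acadl, -0.17 ± 0.07 for Acadm and -0.13 ± 0.08 for Acads, the last without a call. The call of Acadm was lost without naive library 1 or 3 or 4 h library 2 or 3 (limma adjusted p from 0.0706 to 0.13). Of the 4 synthetases tested, 3 rose and Acsl1 fell (-0.42 ± 0.08). Acsl3 read 5.86, 5.90 and 5.79 at 4 h, against 4.24, 4.28 and 4.42 in naive libraries, and Acsl4 read 6.38, 6.41 and 6.50 at 4 h, against 5.05, 5.45 and 5.39 in naive libraries. Both were above all naive values in every 4 h library, by 1.54 ± 0.08 for Acsl3 (limma adjusted p = 1.14e-14) and 1.13 ± 0.10 for Acsl4 (limma adjusted p = 4.34e-10).

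At 12 h, 17 of 31 members were higher and 8 lower than in naive cells by limma, against 41.7% and 39.2% of all genes tested, and 5 reached a fold of 2, against 38.9%. The median log2 fold change was 0.35 over the members and 0.03 over all genes. Acsl1, the synthetase of the mitochondrial outer membrane, had its lowest level here, at 3.75, 3.87 and 3.92 at 12 h, against 5.13, 5.14 and 5.22 in naive libraries, with no overlap and a log2 fold change of -1.32 ± 0.08 (limma adjusted p = 2.49e-13). Acad9 read 6.15, 6.24 and 6.27 at 12 h, against 5.16, 5.11 and 5.11 in naive libraries, a rise of 1.09 ± 0.06 (limma adjusted p = 9.69e-14). Acad8 read 2.29, 2.43 and 2.59 at 12 h, against 1.06, 0.91 and 0.73 in naive libraries, and Mut read 5.17, 5.12 and 5.18 at 12 h, against 3.64, 3.95 and 3.94 in naive libraries. These were the largest rises at 12 h, by 1.54 ± 0.19 for Acad8 (limma adjusted p = 9.35e-08) and 1.31 ± 0.10 for Mut (limma adjusted p = 1.69e-11), with no overlap in either. Acad10 read 3.09, 2.91 and 3.14 at 12 h, against 4.14, 3.96 and 4.11 in naive libraries, and fell by 1.02 ± 0.12 (limma adjusted p = 8.31e-08). Acsl3 was back at the naive level, at 4.30, 4.36 and 4.22 (log2 difference -0.02 ± 0.08, limma adjusted p = 0.819). The call of Hadh, -0.16 ± 0.06, was lost without naive library 1 or 3 or 12 h library 2 or 3 (limma adjusted p from 0.0559 to 0.135). Ivd and Gcdh gained a call without naive library 3 (-0.18, limma adjusted p = 0.0288) and naive library 2 (0.18, limma adjusted p = 0.0443).

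At 24 h, 23 of 31 members were higher and 8 lower than in naive cells by limma, against 42.2% and 42.5% of all genes tested. A fold of 2 or more was reached by 9 members, all upward, against 46.7% of all genes, and the median log2 fold change was 0.45 over the members and -0.01 over all genes. Acad8 read 2.59, 2.86 and 2.88 at 24 h, against 1.06, 0.91 and 0.73 in naive libraries. Mut read 5.59, 5.58 and 5.58 at 24 h, against 3.64, 3.95 and 3.94 in naive libraries. Acadl read 7.68, 7.68 and 7.69 at 24 h, against 6.14, 6.07 and 6.12 in naive libraries. All 3 genes were more than 1 log2 unit above naive in every 24 h library, and their log2 fold changes were 1.88 ± 0.19 for Acad8, 1.74 ± 0.10 for Mut and 1.57 ± 0.05 for Acadl, with limma adjusted p of 2.75e-09, 6.21e-14 and 9.36e-19. The other 6 were Acad9, Etfa, Acsl4, Echs1, Acsl3 and Etfb, at 1.05 to 1.26.

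Hadhb and Acaa2, a pair of thiolase genes of the spiral, stayed below naive cells at all 3 times. This course was not particular to them. Group means of Eci2, Acad10, Acad11, Acadsb and Acsl1 were also below naive cells at all 3 times. The thiolase Acat1 averaged 6.92 at 24 h, above its naive mean of 6.54. Hadhb read 5.12, 5.18 and 5.10 at 4 h, 5.32, 5.30 and 5.27 at 12 h and 5.67, 5.72 and 5.67 at 24 h, all under the lowest naive value of 6.07. Hadha, its partner, read 7.46, 7.42 and 7.36 at 4 h, 7.99, 7.98 and 7.94 at 12 h and 8.01, 8.03 and 8.11 at 24 h. Hadha was thus under its lowest naive value at 4 h and above its highest at 12 and 24 h. The log2 fold changes at 24 h were -0.43 ± 0.07 for Hadhb (limma adjusted p = 3.16e-06) and 0.46 ± 0.04 for Hadha (limma adjusted p = 3.3e-10).

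The remaining core genes followed different courses. Acadl read 5.78, 5.68 and 5.59 at 4 h and 6.65, 6.62 and 6.60 at 12 h, and Etfb 4.82, 4.91 and 4.75 at 4 h, 5.99, 6.0 and 5.93 at 12 h and 6.35, 6.41 and 6.58 at 24 h. Both were below naive cells at 4 h and above them afterwards. Etfa read 6.19, 6.08 and 5.98 at 4 h, 6.78, 6.78 and 6.75 at 12 h and 7.07, 6.95 and 7.12 at 24 h, above naive cells at every time. Acads read 4.22, 4.35 and 4.23 at 4 h, 5.27, 5.23 and 5.25 at 12 h and 5.17, 5.07 and 5.35 at 24 h, and Etfdh 5.19, 5.21 and 5.03 at 4 h, 5.76, 5.68 and 5.72 at 12 h and 5.81, 5.84 and 5.84 at 24 h. In both the 4 h libraries overlapped the naive ones and the later ones stood above them. Acadm read 5.29, 5.22 and 5.18 at 4 h, 5.79, 5.76 and 5.78 at 12 h and 5.73, 5.63 and 5.76 at 24 h, and Acadvl 5.78, 5.75 and 5.77 at 4 h, 6.12, 6.11 and 6.09 at 12 h and 5.85, 5.75 and 5.86 at 24 h. Acadvl was below naive cells at 4 h and 24 h (-0.20 ± 0.07 at 24 h), and its 24 h call was lost without naive library 1 (limma adjusted p = 0.0848). The 24 h calls of Ivd (0.15 ± 0.07), Mcee (0.40 ± 0.13) and Acad11 (-0.25 ± 0.12) also failed without single libraries: Ivd without naive library 2 or 3 or 24 h library 2 or 3 (limma adjusted p from 0.104 to 0.242), Mcee without naive library 2 (0.0862) and Acad11 without any naive library or 24 h library 1 or 3 (0.0655 to 0.168).

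**Figure D5:**
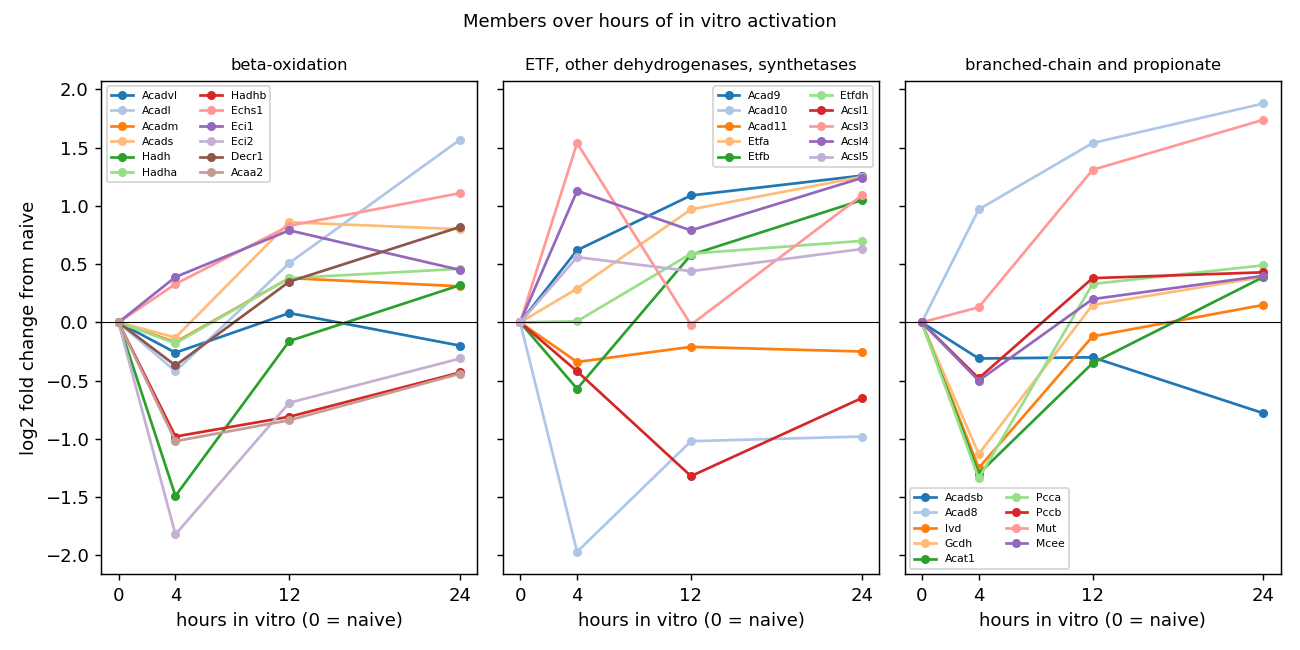
Log2 fold change from naive cells (vertical axis) against hours of in vitro activation (horizontal axis, with naive cells at 0) for the spiral genes, the flavoprotein, further dehydrogenase and synthetase genes, and the branched-chain and propionate genes. Lines join group means of 3 libraries. Most lines dip at 4 h, and most lie above 0 at 24 h. Eci2 dips to -1.82 at 4 h and stays below 0 at 24 h, with group means of 4.81 at 24 h and 5.12 in naive cells. Acsl3 is high at 4 h (1.54), near 0 at 12 h and high again at 24 h (1.09).

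Macrophage and erythroid markers were lower in the in vitro groups: 8 of 9 macrophage markers and 3 of 3 erythroid markers were lower than in naive cells at each of the 3 times, with the 9 macrophage markers summing to 11.7 to 14.2 CPM at 4 h, 7.09 to 8.55 CPM at 12 h and 8.82 to 10.2 CPM at 24 h. Stroma markers were lower than in naive cells in 3 of 3 cases at 4 h, 2 at 12 h and 2 at 24 h, and plasma cell markers in 2 of 3 at each time, with none of either higher. At 4, 12 and 24 h, T cell markers were lower in 3, 3 and 2 of 4 cases and higher in 1 each time, neutrophil markers lower in 0, 5 and 3 of 6, and dendritic cell markers lower in 2, 3 and 4 of 5. The part of these cells in the time courses was not tested.

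Peak GC cells against 24 h cells gave 3 members higher and 24 lower by limma, against 38.5% and 42.4% of all genes tested. A fold of 2 or more was reached by 7 members, all downward, against 35.8% of all genes. The median log2 fold change was -0.67 over the members and -0.05 over all genes. Acad8, at 0.92, 0.88 and 1.17 in peak GC libraries, differed from the 24 h libraries by -1.79 ± 0.19 (limma adjusted p = 8.85e-09). Pccb read 4.03, 4.12 and 4.01 in peak GC libraries, against 5.35, 5.34 and 5.38 at 24 h, and Acad9 read 5.19, 5.02 and 5.12 in peak GC libraries, against 6.34, 6.39 and 6.44 at 24 h. Neither gene had overlapping groups, and the log2 fold changes were -1.30 ± 0.06 for Pccb (limma adjusted p = 2.41e-15) and -1.28 ± 0.06 for Acad9 (limma adjusted p = 6.52e-15). Acadsb, with a difference of the same size (-1.28 ± 0.10, limma adjusted p = 4.8e-11), read 2.46, 2.66 and 2.50 in peak GC libraries, against 3.90, 3.76 and 3.81 at 24 h. The 3 higher genes were Hadhb (0.76 ± 0.07, limma adjusted p = 3.59e-10), Acad10 (0.43 ± 0.12) and Hadha (0.29 ± 0.04). Acads, at 0.12 ± 0.08, was called higher without 24 h library 3 (limma adjusted p = 0.0389), and Etfa, at -0.11 ± 0.06, was called lower without peak GC library 3 (0.0408) or 24 h library 2 (0.0332). Beside these, 8 of 9 macrophage markers and 3 of 3 erythroid markers were higher in peak GC cells, as were 2 of 3 plasma cell and 1 of 3 stroma markers, with 1 of each lower. Their part was not tested.

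Within the GC series few members were called, and fewer of all genes tested were called too than in the comparisons above. In peak against early GC cells 3 of 31 members were higher and 1 lower by limma, against 5.77% and 7.42% of all genes tested, and no member reached a fold of 2, against 3.04%. Acadl read 6.70, 6.77 and 6.82 in peak GC libraries, against 6.48, 6.59 and 6.49 in early GC libraries, without overlap and with a log2 fold change of 0.25 ± 0.05 (limma adjusted p = 0.00148). This call held without each library in turn. Hadh and Echs1 rose by 0.20 ± 0.06 each (limma adjusted p = 0.0399 and 0.0417) and Acsl5 fell by 0.13 ± 0.04 (0.0494). Hadh lost its call without early GC library 2 or 3 or any peak GC library (limma adjusted p from 0.0542 to 0.14), Echs1 without early GC library 2 or 3 or peak GC library 2 or 3 (0.0865 to 0.154) and Acsl5 without any early GC library or peak GC library 2 or 3 (0.0636 to 0.208). Calls were gained by Acsl3 without early GC library 1 (0.0332) or peak GC library 1 (0.0103), by Eci1 without early GC library 2 (0.0449) and by Pccb without peak GC library 2 (0.0454). Of 3 erythroid markers tested, 2 were lower in peak than in early GC cells, with the whole list summing to 78.1 to 97.7 CPM in peak GC, against 139 to 370 CPM in early GC libraries. Their part was not tested.

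In late against peak GC cells 1 of 31 members was higher and 3 were lower by limma, against 12.0% and 20.6% of all genes tested, and none reached a fold of 2, against 8.27%. This split turned with the scaling: when each library was centred on a trimmed mean, 10 members were higher and 1 lower, and over all genes 56.1% of the calls were higher in late GC cells, against 36.9% without that centring. Acadsb rose by 0.32 ± 0.10 (limma adjusted p = 0.0202), and Acad10, Acad11 and Acsl3 fell by 0.33 ± 0.12, 0.32 ± 0.12 and 0.30 ± 0.08 (0.044, 0.0425 and 0.00481). Acsl3 read 4.77, 4.81 and 4.80 in late GC libraries, against 5.29, 4.99 and 5.01 in peak GC libraries, and its call held without each library in turn. Acadsb lost its call without peak GC library 1 (limma adjusted p = 0.0763) or late GC library 2 (0.152), Acad10 without peak GC library 1 or 2 or late GC library 1 (0.131 to 0.312) and Acad11 without peak GC library 1 or 2 or late GC library 1 or 2 (0.0678 to 0.257). Without late GC library 1, in which macrophage markers were highest, 2 members were higher and 1 lower. Calls were gained by Eci2 (0.0244) and Pcca (0.0495) without peak GC library 2 and by Decr1 without peak GC library 2 (0.0395) or late GC library 1 (0.0336). Of the other markers, 4 of 9 macrophage, 6 of 6 neutrophil, 3 of 3 erythroid and 2 of 3 plasma cell genes were higher and none lower in late GC cells, and of 5 dendritic cell genes 3 were higher and 1 lower. Their part was not tested.

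The counts of the lists around the set are to be read against the shares over all genes tested, which were 40.5% higher and 39.3% lower in peak GC against naive cells, 39.2% and 40.1% in in vivo activated against naive cells, and 34.1% and 35.0% in peak GC against in vivo activated cells. The carnitine shuttle brings acyl groups to these enzymes, and of its 8 genes tested 3 were higher and 4 lower in peak GC than in naive cells (37.5% and 50%), 1 higher and 4 lower in in vivo activated than in naive cells (12.5% and 50%), and 3 higher and 2 lower in peak GC than in in vivo activated cells (37.5% and 25.0%). With so few genes, the first and last of these shares are near those over all genes. Cpt1a, which makes the acylcarnitines, averaged 7.75 in peak GC cells, 6.28 in cells activated in vivo, and 7.22 in naive cells. It was thus higher in peak GC than in in vivo activated cells by 1.47 ± 0.06 on the log2 scale (limma adjusted p = 2.32e-15), in the comparison in which 25 members were lower. Crat, carnitine acetyltransferase, averaged 5.99 in peak GC and 4.81 in in vivo activated cells, a log2 fold change of 1.18 ± 0.10. In the in vitro groups Cpt1a averaged 5.34 at 4 h, 4.50 at 12 h and 4.43 at 24 h, below naive cells at each time, by 2.80 ± 0.06 (log2 fold change -2.80) at 24 h.

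Peroxisomal oxidation, which handles chains too long for mitochondria, had 4 genes higher and 8 lower of 15 tested in peak GC against naive cells (26.7% and 53.3%). In in vivo activated against naive cells 8 were higher and 2 lower (53.3% and 13.3%), and in peak GC against in vivo activated cells 3 were higher and 9 lower (20.0% and 60.0%). Ehhadh, its bifunctional enzyme, averaged 4.62 in peak GC cells, 2.89 in cells activated in vivo, and 3.13 in naive cells, a log2 fold change of 1.49 ± 0.09 in peak GC against naive cells (limma adjusted p = 9.29e-13). Acyl activation and thioester genes outside the set gave 5 higher and 5 lower of 11 in peak GC against naive cells (45.5% each, near the shares over all genes), with the thioesterase Acot7 at 2.33 ± 0.07 and the fatty acid transporter Slc27a4 at -2.46 ± 0.11. Oxct1, which activates ketone bodies, averaged 7.97 in peak GC cells, 8.46 in cells activated in vivo, and 5.98 in naive cells. Both ketone body genes tested were higher in peak GC than in naive cells, and both were lower in peak GC than in in vivo activated cells. Of 13 regulators of oxidation genes tested, 4 were higher and 9 lower in peak GC than in naive cells (30.8% and 69.2%). Pdk3, a kinase that restrains pyruvate dehydrogenase, rose by 1.66 ± 0.05, and Pdk2 fell by 5.49 ± 0.27 and Tfam, the mitochondrial transcription factor, by 1.08 ± 0.06. These lists were chosen with earlier results of these data known.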

How the data were processed

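RNA was extracted from sorted splenic B cells and made into stranded mRNA libraries sequenced as 75-base read pairs, per the labels' protocols. The build was mm10 and the tools were STAR 2.6.0c, per the submitters' processing notes, and also limma, Subread 1.6.2 with featureCounts, cutadapt 1.8.3 and FastQC 0.11.5. How these tools were set is not given in the sources used here. The authors deposited 1 file of log2 values per library, which hold no counts. Raised from the log2 scale, the values sum to 990678 to 1008194 per library, so they are close to CPM. The value at rank 1000 spans only 0.03 log2 over all libraries, and the means of the 3 replicate numbers differ by at most 0.0009 log2, so the deposited values carry adjustments that no label records. Such adjustments can narrow the spread between libraries and make the p-values too small. Depth is unknown, and no counting interval is given.

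Genes with a log2 value of at least 0 (1 CPM) in at least 3 libraries were tested, on the deposited log2 values with no pseudocount. One linear model over the 8 groups was fitted with limma 3.58.1 in R 4.3.3 (variance trend, robust moderation), without a replicate block. P-values were adjusted by Benjamini-Hochberg over all genes tested in each of 9 comparisons, and called means an adjusted p under 0.05. The ± of a fold change is its standard error. The fit was tested on simulated data first.

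All members are accounted for. Values in every library are given for the chain-length dehydrogenases, trifunctional protein and flavoprotein genes and, in each comparison, for up to 3 members in each direction with the largest change among those called at a fold of 2 or more. Further genes given with library values in the GC comparisons are those whose call held without each library. For the surrounding lists, the genes named are at most 2 a direction, by smallest p. The members and lists were chosen with earlier results of these data known. One GC marker is not reported here and is left out of the GC marker sum. Python 3.11.15 with pandas 2.3.3 and matplotlib 3.10.9 made the tables and figures. All 32 members matched the GENCODE annotation of GRCm38, the build also called mm10. Exons of 4 members overlap another gene on the same strand (Acad9, Acad11, Etfb and Acsl3) and 11 on the opposite strand, so their values may include reads of those genes. The alternatives tried were the variance model, the filter, the groups in the fit, a replicate block, 2 ways of centring, a threshold of 0.01, leaving out each library, and the gene length.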

Additional observations from a re-analysis of the deposited data

How the results depend on the processing

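In the 7 comparisons with naive, in vivo activated or 24 h cells on one side, the counts of members called higher, lower or at a fold of 2 stayed within 1.5 times under every alternative run. Of 279 member fold changes, 197 were called, 31 lost or gained a call on leaving out a library, and 0 reversed under any alternative. Calls depended on the processing within the GC series. In peak against early GC cells, the 3 members called higher became 1 with no filter, 1 with the replicate block, 1 with trimmed mean centring, 1 at a threshold of 0.01 and 0 with only the 2 groups compared, and 1 to 3 on leaving out a library. The 1 called lower became 0 with no filter, 0 with the replicate block, 0 with median centring, 0 at a threshold of 0.01, 0 with only the 2 groups compared and 2 with trimmed mean centring, and 0 to 2 on leaving out a library. In late against peak GC cells, the 1 called higher became 2 without the variance trend, 2 with no filter, 10 with trimmed mean centring, 0 at a threshold of 0.01 and 0 with only the 2 groups compared, and 0 to 4 on leaving out a library. The 3 called lower became 1 with no filter, 1 with the replicate block, 1 with trimmed mean centring, 1 at a threshold of 0.01 and 0 with only the 2 groups compared, and 1 to 3 on leaving out a library. The count at a fold of 2 was 1 with no filter, against 0. Fewer libraries enter the fit with only the 2 groups compared, and more genes are tested with no filter. The cause of the other changes was not tested.

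The median fold change of the members in peak against early GC cells, -0.04, was 0.01 without peak GC replicate 3. Over 84 pairs of same-numbered libraries the correlation of their deviations from the group means ran from -0.369 to 0.112 with a median of -0.127, and 1 pair was above 0.1. Since the means of the 3 replicate numbers are nearly equal in the deposited values, this correlation is held below 0 on average whether or not the libraries were paired, so the check cannot show whether they were. The replicate block took the call from 11 of 279 member fold changes. A threshold of 0.01 took it from 17 and only the 2 groups compared from 13. Trimmed mean centring took it from 6 and gave it to 13. Unknown depth limits what can be said of low genes such as Acad8, Mcee and Acsl6, and 3 libraries a group limit the precision of all fold changes.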

Other observations

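Genes that work next to the branched-chain and propionate members showed values not described above. Bcat1, the cytosolic transaminase that starts branched-chain amino acid breakdown, averaged 5.76 in peak GC cells, 5.95 in cells activated in vivo, and 1.19 in naive cells, and 6.63, 7.35 and 7.47 after 4, 12 and 24 h in vitro. Its log2 fold change against naive cells was 4.57 ± 0.11 in peak GC cells, 4.75 ± 0.11 in in vivo activated cells and 6.28 ± 0.11 at 24 h (limma adjusted p from 1.18e-22 to 2.81e-20). Of the 15 genes of that list, all tested, 6 were higher and 9 lower in peak GC against naive cells (40.0% and 60.0%, against 40.5% and 39.3% of all genes tested). In in vivo activated against naive cells 11 were higher and 2 lower (73.3% and 13.3%, against 39.2% and 40.1%), and in peak GC against in vivo activated cells 1 was higher and 8 lower (6.67% and 53.3%, against 34.1% and 35.0%). Mccc1, a subunit of methylcrotonyl-CoA carboxylase in leucine breakdown, averaged 3.62 in peak GC cells, 4.73 in cells activated in vivo, and 4.56 in naive cells.

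Accessory genes of cobalamin and propionate handling include genes that process the cobalamin cofactor of the mutase Mut. Of 5 tested, 4 were higher and 1 lower in peak GC against naive cells, against 40.5% and 39.3% of all genes tested. In in vivo activated against naive cells 3 were higher and 1 lower, against 39.2% and 40.1%. In peak GC against in vivo activated cells 0 were higher and 3 lower, against 34.1% and 35.0%. Mmachc, which trims incoming cobalamin, averaged 2.20 in peak GC cells, 3.13 in cells activated in vivo, and 1.64 in naive cells, and 4.95 at 24 h in vitro. Mmaa, which loads the cofactor onto the mutase, was lower in peak GC than in naive cells by a log2 fold change of -1.24 ± 0.17 (limma adjusted p = 4.32e-07), while Mut was higher.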
